A study of Mus musculus with 95 samples.

Results

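The effect of pioglitazone on gene expression was compared between diabetic and non-diabetic sciatic nerve (SCN). The measure was a difference of differences, (db/db PIO minus db/db) minus (db/+ PIO minus db/+), on log2(FPKM + 1), and it is called the interaction here. It used the 24 SCN libraries of a series of 95 libraries from SCN, dorsal root ganglia (DRG), kidney glomeruli and kidney cortex. The SCN libraries fell into 4 groups of 6, untreated db/+, untreated db/db and each genotype with pioglitazone (PIO), from male mice of the BKS.Cg-m +/+ Leprdb/J strain at 16 weeks of age. Both genotypes carry the Lepr db allele, on one chromosome in db/+ and on both in db/db, and without functional leptin receptor signalling db/db mice become obese and diabetic. PIO marks mice given 15 mg/kg pioglitazone in chow for 11 weeks. FPKM is the number of fragments scaled to transcript length and to the fragments mapped in the library, so that it can be set side by side between genes. An interaction above 0 means that db/db PIO lay higher, relative to db/db, than db/+ PIO did relative to db/+. Values after ± are standard errors (SE), and levels are given as the lowest, highest and median FPKM over the libraries with a value above 0.

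Pioglitazone is a thiazolidinedione that activates PPARG, a nuclear receptor that drives fat storage and adipocyte differentiation and raises insulin sensitivity. The SCN holds axons wrapped by Schwann cells, bundled by a perineurium whose flat cells are joined by tight junctions, and covered by a collagen-rich epineurium with fibroblasts, mast cells, macrophages, vessels and fat. A treatment can therefore reach the transcript profile of the nerve through nerve cells, through its sheaths or through the cells that settle between them, and in whole tissue fewer cells of a type and less RNA per cell cannot be told apart.

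As a check of the labels, Lepr, the gene mutated in the model, was at 2.25 to 6.57 FPKM in db/+ (median 4.02, 5 values), 0.88 to 2.8 in db/+ PIO (median 1.74, 5 values), 1.06 to 1.87 in db/db (median 1.38, 6 values) and 1.14 to 2.33 in db/db PIO (median 1.58, 6 values). Untreated db/db lay wholly below untreated db/+, but db/+ PIO overlapped both db/db groups. Lepr therefore cannot check the genotype labels of treated mice. The lowest db/+ values above 0, 2.25 and 2.27 FPKM, were those of replicates 5 and 6, which are described below. The gene-level FPKM of Lepr does not show the splice change of the db allele, and its interaction was 0.93 ± 0.28 (SE; adjusted p = 0.0501). The myelin gene Mbp, which marks Schwann cells, had a value in all 24 libraries, of at least 7889 FPKM. Pparg was listed at 0 in all 24 libraries, and Ppard in all but 3. Ppara had values of 1.63 to 2.88 FPKM in 15 libraries, too few in db/db PIO for a test. An exact 0 was read as missing, since genes that every cell uses are also listed at 0: of 63 cytosolic ribosomal protein genes, 9 are at 0 in all 24 libraries. Of the entries of the genes tested, 15.7% were at 0, from 12.5% in db/+ to 19.0% in db/db. The number of genes above 0 had a median of 9051 and 8839.5 in untreated and treated db/+ libraries and of 8226 and 8424.5 in untreated and treated db/db libraries, and the read depth of each library was not known.

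The db/+ libraries did not form a single cluster for genes of the nerve sheath. Cldn1, the tight junction protein claudin-1 of the perineurium, was at 62.5, 52.7, 61.1 and 84.3 FPKM in db/+ replicates 1 to 4 and at 16.7 and 13.8 FPKM in replicates 5 and 6. Comp, a matrix glycoprotein of tendon and cartilage, was at 22.3, 8.20, 20.3 and 45.1 FPKM in replicates 1 to 4 and at 1.05 and 0.95 FPKM in replicates 5 and 6. Cldn1, Krt19 and Gdf10 are the 3 genes of the list of fibroblast and perineurial genes with a value in all 24 libraries. Their summed FPKM was between 22.4 and 149 in db/+, between 11.1 and 77.2 in db/+ PIO, between 20.3 and 52.6 in db/db and between 38.8 and 133 in db/db PIO. The 2 low sums of db/+, at 23.2 in replicate 5 and 22.4 in replicate 6, fell within the range of db/+ PIO. In db/db PIO the sum of 133 was that of replicate 6, and the other sums were between 38.8 and 71.3. The results below were therefore also computed without db/+ replicates 5 and 6, and without db/+ replicates 1 to 4 with at least 2 values per group. Both settings were chosen after these values were seen. For genes low in replicates 5 and 6, the first must raise the db/+ mean and with it the interaction. The second must lower both, and it leaves 2 db/+ libraries and so less power. Counts and adjusted p in these settings are a description and no independent support.

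Of 3596 genes tested, 215 (5.98%) passed for the interaction at an adjusted p under 0.05 (limma, Benjamini-Hochberg over all genes tested), and 850 had an unadjusted p under 0.05. The interaction was above 0 for 138 of them (3.84% of the genes tested) and below 0 for 77 (2.14%). With 1 library left out in turn, 180 of the 215 genes could be fitted each time, and all of them kept their sign. Among these 180, the largest interactions above 0 were those of Comp, Mfap4, Gdf10, Cldn1 and Fmod. Ear11, at 2.81 with 3 db/+ values, could not be fitted each time and was left out of this ranking. The largest below 0 were those of Mycn, Has2, Pou3f2, Crybb1 and Pou3f1. The sizes were not alike, with a median of 1.05 on the log2 scale above 0 and -0.60 below 0, against 0.05 over all genes tested. A difference of at least 1 on the log2 scale was reached by 75 genes above 0 and 4 below 0.

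The 2 pioglitazone effects that make up the interaction share no library and are given as a description, since the interaction chose the genes. Among the 138 genes above 0, the 2 effects had opposite signs in 127, and in the other 11 they had the same sign with the larger effect in db/db. The median effect was 0.66 in db/db and -0.41 in db/+. For 66 of these genes the 95% intervals of both effects left out 0, for 56 only that in db/db did, and for 16 only that in db/+. Among the 77 genes below 0, 75 had opposite signs, with a median effect of -0.44 in db/db and 0.14 in db/+, and for 58 only the interval in db/db left out 0. Over all genes tested, 2005 of 3596 had opposite signs. Both intervals left out 0 for 159 of the 3596, only that in db/db for 744 and only that in db/+ for 316. The db/db PIO range lay wholly above that of db/db for 71 of the 138 genes (7.65% of all genes tested), and wholly below it for 42 of the 77 (4.39% of all genes tested). In db/+, PIO lay wholly below the untreated range for 10 of the 138 genes (1.22% of all genes tested). The gap between the genotypes turned with treatment for 85 of the 138 genes, from db/db below db/+ in untreated mice to db/db PIO above db/+ PIO. Over all 3596 genes tested, 663 turned in this way. For 44 of the 77 genes it turned the other way, as it did for 499 of all genes tested. These are signs of estimates, and choosing genes by a large interaction makes a turn more likely.

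**Figure D1:**
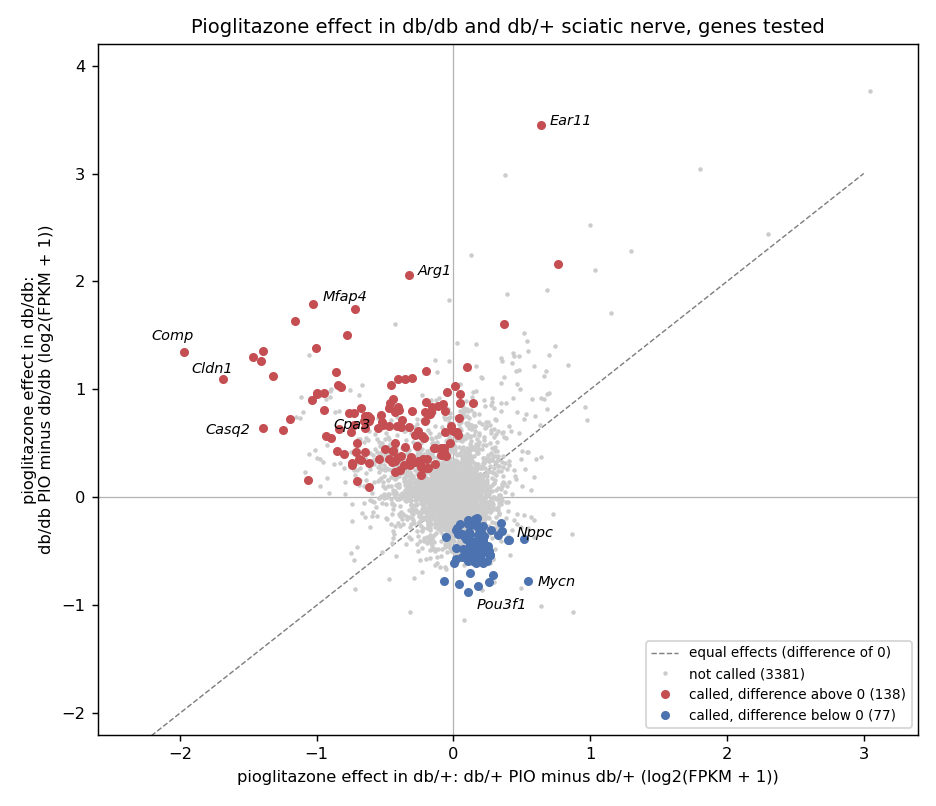
Pioglitazone effect in db/+ (x axis) and in db/db (y axis), both on log2(FPKM + 1), for each of the 3596 genes tested; the dashed line marks equal effects, red points the 138 genes called above it and blue points the 77 called below it. Most red points lie in the upper left, with a db/db effect above 0 and a db/+ effect below 0, and the blue points lie close to 0 on the x axis and below 0 on the y axis.

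With db/+ replicates 5 and 6 left out, 494 of 3131 genes passed, 362 above 0. Without db/+ replicates 1 to 4, and with at least 2 values per group, 32 of 3388 genes passed, 19 above 0. Of the 215 genes, 200 could be fitted in the first setting and 197 of these passed, and 178 could be fitted in the second and 21 of these passed. A total of 19 genes passed in all 3 settings, 10 above 0 and 9 below 0. The sign of each named interaction was kept under 3 other scalings, but the calls were not. With the tested genes quantile normalized among themselves, a scaling that moved the median interaction from 0.05 to -0.09, 252 genes passed, 116 above 0 and 136 below 0. Quantile normalization over all genes moved the median to -0.30 and left 8 genes, 4 in each direction, and with each 0 entered as a value 3 genes passed, all above 0. In the other tissues, the same fit called 0 of 3305 genes in DRG (433 at an unadjusted p under 0.05), 322 of 3563 in glomeruli and 1 of 3228 in cortex.

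**Figure D2:**
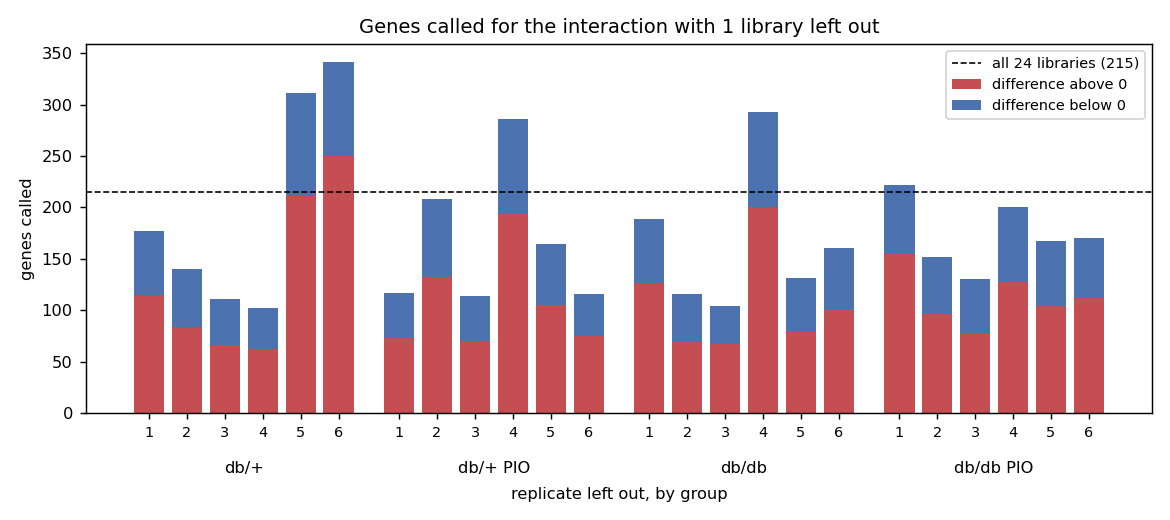
Number of genes called for the interaction (y axis) in each of the 24 fits that left out 1 library (x axis, by group), split into interactions above 0 (red) and below 0 (blue). The counts run from 102 without db/+ replicate 4 to 342 without db/+ replicate 6, around the 215 called with all libraries (dashed line).

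Comp, Fmod and Mfap4, which encode extracellular matrix proteins, were 3 of the 15 genes with the largest interactions above 0. Comp was at 0.95 to 45.1 FPKM in db/+ (median 14.2, 6 values), 1.08 to 2.92 in db/+ PIO (median 1.15, 4 values), 1.98 to 5.02 in db/db (median 2.84, 5 values) and 3.83 to 16.6 in db/db PIO (median 10.3, 6 values). The untreated db/+ values spanned those of all other groups, while every db/db PIO value was above every db/+ PIO value. The pioglitazone effect was 1.34 ± 0.64 in db/db and -1.97 ± 0.68 in db/+, an interaction of 3.32 ± 0.93 (SE; adjusted p = 0.0413). Fmod, encoding fibromodulin, a proteoglycan that binds collagen fibrils, was at 3.16 to 31.2 FPKM in db/+ (median 22.8, 6 values), 1.95 to 12.2 in db/+ PIO (median 3.83, 6 values), 2.96 to 4.94 in db/db (median 3.81, 6 values) and 7.25 to 24.2 in db/db PIO (median 11.6, 5 values). Db/db PIO lay above db/db without overlap, and the pioglitazone effect was 1.36 ± 0.48 in db/db and -1.39 ± 0.45 in db/+. Its interaction was 2.75 ± 0.66 (SE; adjusted p = 0.0229). Mfap4, an elastic fibre protein, was at 0.1 to 9.62 FPKM in db/+ (median 4.26, 5 values), 0.18 to 1.82 in db/+ PIO (median 0.58, 6 values), 1.26 to 3.94 in db/db (median 1.91, 6 values) and 6.09 to 16.9 in db/db PIO (median 9.41, 6 values). Again all db/db PIO values were above those of db/db, and the interaction was 2.81 ± 0.63 (SE; adjusted p = 0.0177), with effects of 1.79 ± 0.43 in db/db and -1.02 ± 0.45 in db/+.

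Gdf10, a growth factor of the TGF-beta family, was at 1.07 to 36.6 FPKM in db/+ (median 13.7, 6 values), 1.03 to 13.4 in db/+ PIO (median 2.44, 6 values), 3.84 to 10.8 in db/db (median 6.16, 6 values) and 16.7 to 35.2 in db/db PIO (median 21.8, 6 values). Every db/db PIO value exceeded every db/db and db/+ PIO value, whereas the untreated db/+ values reached from under the lowest to over the highest db/db PIO value. The interaction was 2.79 ± 0.82 (SE; adjusted p = 0.0453), from effects of 1.63 ± 0.58 in db/db and -1.16 ± 0.58 in db/+. Cldn1 was at 13.8 to 84.3 FPKM in db/+ (median 56.9, 6 values), 5.05 to 44.9 in db/+ PIO (median 12.7, 6 values), 6.58 to 23.9 in db/db (median 12.4, 6 values) and 13.5 to 87.2 in db/db PIO (median 33.5, 6 values). Here the groups overlapped in each pair, and the interaction was 2.77 ± 0.71 (SE; adjusted p = 0.0273), with effects of 1.30 ± 0.50 in db/db and -1.47 ± 0.50 in db/+. In mm9, Comp lies on chromosome 8, 72897447 to 72905964, Fmod on chromosome 1, 135933831 to 135944854, Gdf10 on chromosome 14, 34736773 to 34749700 and Cldn1 on chromosome 16, 26356728 to 26371927.

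The interactions of these genes moved with the db/+ libraries, as they must for genes whose own values showed the split. For Comp the interaction was 4.46 without db/+ replicates 5 and 6 (adjusted p = 0.00011) and 1.04 without replicates 1 to 4 (adjusted p = 0.426). For Gdf10 it was 3.79 without db/+ replicates 5 and 6 (adjusted p = 0.000648) and 0.79 without replicates 1 to 4 (adjusted p = 0.691), and for Fmod 3.59 without db/+ replicates 5 and 6 (adjusted p = 7.74e-05) and 1.07 without replicates 1 to 4 (adjusted p = 0.435). Cldn1 had 3.44 without db/+ replicates 5 and 6 (adjusted p = 0.00183) and 1.43 without replicates 1 to 4 (adjusted p = 0.512). Mfap4 was at 0.1 and 0.24 FPKM in db/+ replicates 5 and 6 and at 4.26 to 9.62 FPKM in its other db/+ values. Its interaction was 3.83 without db/+ replicates 5 and 6 (adjusted p = 3.46e-05) and 1.28 without replicates 1 to 4 (adjusted p = 0.221). All of these genes kept a sign above 0 in both settings, and none passed without replicates 1 to 4. Among the 15 genes with the largest interactions above 0, 14 could be fitted without replicates 5 and 6 and all 14 passed, and 14 could be fitted without replicates 1 to 4 and 1 passed, with a median interaction of 2.73 and 1.17 in turn against 2.44 with all libraries.

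Of the list of fibroblast and perineurial genes, 9 of 23 members were tested, and 2, Gdf10 and Cldn1, passed above 0 (3.84% of all genes tested did). The interaction was above 0 in all 9, with a median of 1.40 against 0.05 over all genes tested. The Wnt modulator Sfrp2 had an interaction of 2.03 (adjusted p = 0.0662), the matrix protein gene Dpt 1.88 (adjusted p = 0.166) and the keratin gene Krt19 1.08 (adjusted p = 0.299). The defining fibroblast genes Dcn, Lum and Col1a1 had too few values to be tested. The count of called members went to 3 without db/+ replicates 5 and 6, and to 0 both without replicates 1 to 4 and under quantile normalization over all genes.

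**Figure D3:**
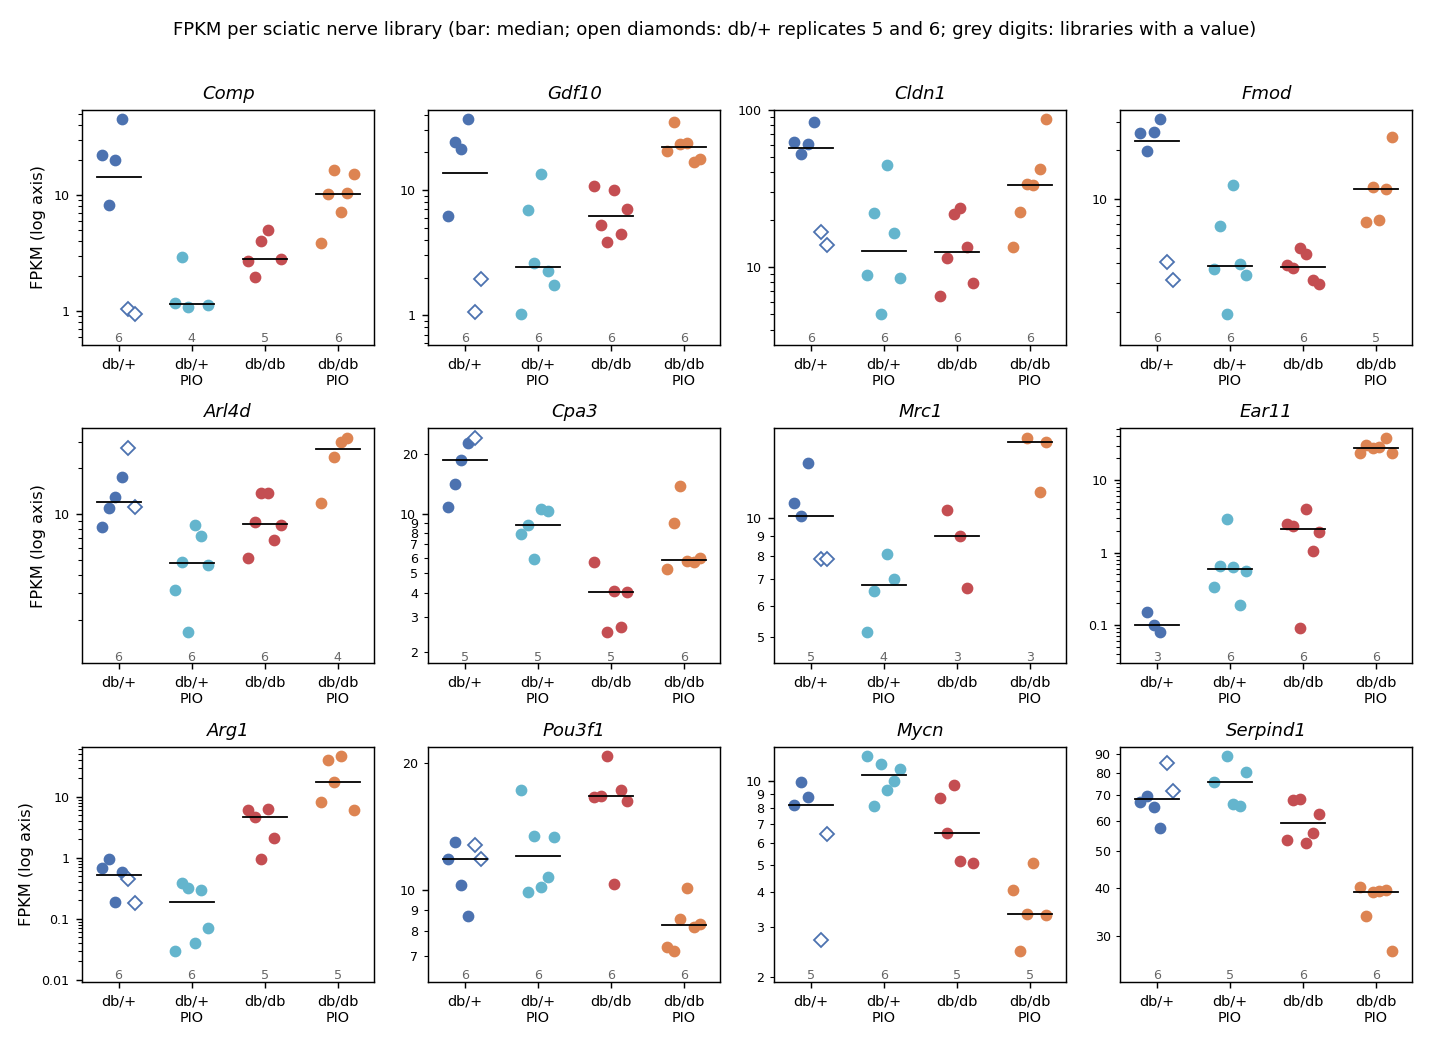
FPKM of 12 genes (log axis) in each SCN library by group; points are libraries, bars are medians, open diamonds are db/+ replicates 5 and 6, and grey digits count the libraries with a value above 0. For Comp, Gdf10, Cldn1 and Fmod the open diamonds lie below the other db/+ libraries and within the range of db/+ PIO or below it, and for Arl4d and Serpind1 they do not.

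Several further genes with large interactions encode membrane and signalling proteins. Arl4d, a small GTPase related to the ADP-ribosylation factors, was at 8.21 to 27.3 FPKM in db/+ (median 12.1, 6 values), 1.67 to 8.44 in db/+ PIO (median 4.76, 6 values), 5.12 to 13.8 in db/db (median 8.62, 6 values) and 11.9 to 31.7 in db/db PIO (median 26.8, 4 values). Its db/+ PIO values were low and its db/db PIO values high, with overlap in both pairs. The pioglitazone effect was 1.26 ± 0.35 in db/db and -1.41 ± 0.32 in db/+, and the interaction of 2.67 ± 0.47 (SE; adjusted p = 0.00643) passed in all 24 fits that left out 1 library. It had 2.50 without db/+ replicates 5 and 6 (adjusted p = 0.00207) and 3.01 without replicates 1 to 4 (adjusted p = 0.0217), so that it passed in both settings. Gas1, a co-receptor for hedgehog ligands, was at 4.06 to 30.4 FPKM in db/+ (median 14.3, 6 values), 3.94 to 7.4 in db/+ PIO (median 5.51, 5 values), 7.79 to 18.7 in db/db (median 11.9, 6 values) and 17.6 to 33.2 in db/db PIO (median 25.6, 6 values). Its interaction was 1.96 ± 0.49 (SE; adjusted p = 0.0253), with effects of 0.96 ± 0.34 in db/db and -1.00 ± 0.36 in db/+, and it was 0.70 without db/+ replicates 1 to 4 (adjusted p = 0.426). Boc, another hedgehog co-receptor, was at 1.16 to 3.89 FPKM in db/+ (median 2.13, 4 values), 0.74 to 1.88 in db/+ PIO (median 1.26, 4 values), 1.64 to 4.63 in db/db (median 2.43, 5 values) and 5.07 to 6.13 in db/db PIO (median 5.49, 4 values). All db/db PIO values of Boc exceeded all values of the other groups, and the interaction was 1.30 ± 0.36 (SE; adjusted p = 0.0453). Of the hedgehog pathway genes, 4 of 14 were tested and 2, Gas1 and Boc, passed, both above 0 (3.84% of all genes tested did). No member passed without db/+ replicates 1 to 4 or under quantile normalization over all genes. The list median was 0.66, and the ligand Shh had an interaction of -0.70 (adjusted p = 0.129).

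The remaining genes among the 15 largest were Wnt2b, Casq2, Kcnj13, Fhl2, Shisa3, Perp, Arg1 and Gm11428. Wnt2b, a Wnt ligand, had an interaction of 2.44 ± 0.72 (SE; adjusted p = 0.0487), and Casq2, the calcium-binding calsequestrin of cardiac muscle, of 2.03 ± 0.51 (SE; adjusted p = 0.0253). The potassium channel gene Kcnj13 had 2.02 ± 0.48 (SE; adjusted p = 0.024) and the LIM domain gene Fhl2 1.95 ± 0.52 (SE; adjusted p = 0.0358). Shisa3, an antagonist of Wnt and FGF receptors, had 1.93 ± 0.52 (SE; adjusted p = 0.0395), and Perp, a desmosomal protein gene, 1.92 ± 0.57 (SE; adjusted p = 0.0477). In all 6 the effect was below 0 in db/+ and above 0 in db/db. The highest db/db PIO value of each was in replicate 6. It was 19.6 FPKM for Wnt2b (others 1.56 to 2.74) and 23.4 FPKM for Perp (others 4.21 to 10.8). The db/db effects of these 6 genes therefore rest in part on 1 library, although each interaction kept its sign without it. Cldn1 and Fmod were also highest among db/db PIO in that library. In each of the 6 genes, the values above 0 of db/+ replicates 5 and 6 lay below the other db/+ values above 0. For Wnt2b they were 1.34 and 1.7 FPKM against 5.91 to 14.8 FPKM. The interaction of Wnt2b was 1.01 without db/+ replicates 1 to 4 (adjusted p = 0.627). Gm11428, an unnamed gene model, was at 1.45 to 12.4 FPKM in db/+ (median 5.14, 6 values), 1.54 to 4.04 in db/+ PIO (median 2.4, 6 values), 2.64 to 13.8 in db/db (median 9.41, 6 values) and 18.1 to 34.9 in db/db PIO (median 30.5, 6 values). Its db/db PIO values exceeded all others, and the interaction was 2.46 ± 0.55 (SE; adjusted p = 0.0171). Casq2 was at 5.8 to 26.6 FPKM in db/+ (median 22.8, 5 values), 3.17 to 11.5 in db/+ PIO (median 5.68, 6 values), 2.82 to 6.35 in db/db (median 3.67, 6 values) and 3.21 to 17.6 in db/db PIO (median 6.38, 6 values), so that the db/+ median was the highest of the 4. Over the 15 largest, the effect in db/+ was the larger of the 2 in 10 genes and the effect in db/db in 5.

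**Figure D4:**
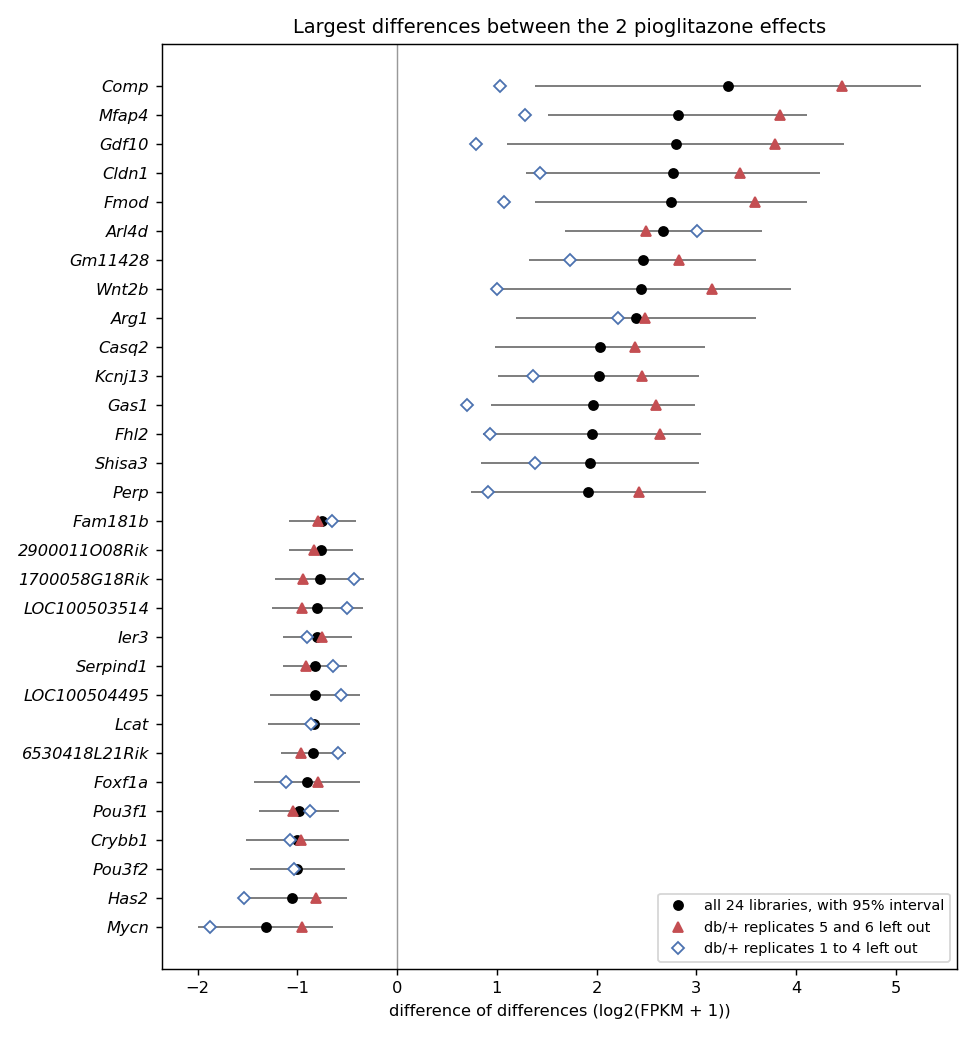
Interaction (x axis, log2(FPKM + 1)) of the 15 largest genes above 0 and the 15 largest below 0; black points with lines are the values of all 24 libraries with 95% intervals, red triangles those without db/+ replicates 5 and 6 and open diamonds those without db/+ replicates 1 to 4, where these could be fitted. The 2 settings lie far apart for Comp, Gdf10, Fmod and Gas1 and closer together for Arg1, Arl4d, Pou3f1 and Crybb1.

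Arg1 and Ear11 were also among the large interactions above 0. Arg1, arginase 1, which degrades arginine and marks alternatively activated macrophages, was at 0.18 to 0.97 FPKM in db/+ (median 0.515, 6 values), 0.03 to 0.38 in db/+ PIO (median 0.185, 6 values), 0.95 to 6.35 in db/db (median 4.65, 5 values) and 5.97 to 45.9 in db/db PIO (median 17.4, 5 values). All db/db PIO values lay above both db/+ groups, and the lowest of them overlapped with untreated db/db. Its interaction was 2.39 ± 0.58 (SE; adjusted p = 0.024), with effects of 2.06 ± 0.43 in db/db and -0.33 ± 0.39 in db/+. Ear11, an eosinophil-associated ribonuclease, was at 0.08 to 0.15 FPKM in db/+ (median 0.1, 3 values), 0.19 to 2.92 in db/+ PIO (median 0.595, 6 values), 0.09 to 3.96 in db/db (median 2.12, 6 values) and 23.6 to 38.3 in db/db PIO (median 28.1, 6 values). The lowest db/db PIO value, 23.6 FPKM, was far above the highest of the other groups, 3.96 FPKM. The pioglitazone effect was 3.45 ± 0.29 in db/db and 0.64 ± 0.36 in db/+, and the interaction was 2.81 ± 0.46 (SE; adjusted p = 0.00565). Only 3 db/+ values of Ear11 were above 0 and none reached the 1 FPKM of the filter on low values, which all 6 db/db PIO values did. Arg1 stayed under 1 FPKM in every db/+ and db/+ PIO library. Adding 1 before the log understates changes at such levels. The db/+ effects of both genes are therefore understated, and the sizes of their interactions depend on that offset. Ear11 is one of a family of closely similar ribonuclease genes, between which reads may have been shared. Of the neutrophil and eosinophil genes, 4 of 17 were tested, and only Ear11 passed. Its relative Ear2 had an interaction of 1.03 (adjusted p = 0.183) and S100a8 of 2.12 (adjusted p = 0.123). Among defining eosinophil genes, Epx had values in 4 of 24 libraries, none above 0.5 FPKM, and Prg2 reached 9.92 FPKM in a single db/db PIO library.

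Mast cell genes had the highest share of called members among the lists with at least 5 members tested. Of 15 members 8 were tested, and Mcpt4, Cpa3, Fcer1a, Hdc and Kit passed, all above 0, against 3.84% of all genes tested. Kit was named after its values were seen. The list median was 0.74, and the other 3, Mrgprb1, Gata2 and Slc18a2, were at 0.56, 0.05 and 0.02. Cpa3, the mast cell carboxypeptidase, was at 10.8 to 24.1 FPKM in db/+ (median 18.7, 5 values), 5.92 to 10.6 in db/+ PIO (median 8.76, 5 values), 2.53 to 5.69 in db/db (median 4.04, 5 values) and 5.29 to 13.8 in db/db PIO (median 5.87, 6 values). Db/+ PIO lay wholly below db/+, and db/db was the lowest of the 4 groups. The effect was 0.80 ± 0.24 in db/db and -0.95 ± 0.25 in db/+, and the interaction was 1.75 ± 0.34 (SE; adjusted p = 0.0081). Mcpt4, a mast cell chymase, was at 47.5 to 79.7 FPKM in db/+ (median 68.4, 3 values), 25 to 52.1 in db/+ PIO (median 35.8, 5 values), 6.83 to 19 in db/db (median 11.2, 4 values) and 16.9 to 43.4 in db/db PIO (median 20.9, 6 values). Its groups fell in the same order, with an interaction of 1.88 ± 0.45 (SE; adjusted p = 0.0253).

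Fcer1a, the alpha chain of the IgE receptor, had an interaction of 1.30 ± 0.38 (SE; adjusted p = 0.0453), and Hdc, which makes histamine, of 0.86 ± 0.22 (SE; adjusted p = 0.0278). Fcer1a was low, at 0.53 to 2.22 FPKM in db/+, 0.15 to 0.91 in db/+ PIO and 0.3 to 1.63 in db/db. Its db/db PIO values above 0 were 0.36, 3.55, 3.32 and 1.81 FPKM. The size of its interaction depends on the 1 added before the log. For Hdc the effect was 0.80 ± 0.16 in db/db and -0.06 ± 0.15 in db/+. Kit, the stem cell factor receptor, had 0.61 ± 0.15 (SE; adjusted p = 0.0231). The 2 highest db/+ values of Hdc were in replicates 5 and 6, at 1.87 and 1.49 FPKM, and Cpa3 was highest in replicate 5, at 24.1 FPKM, and listed at 0 in replicate 6. In the setting without db/+ replicates 5 and 6, 4 mast cell genes passed, and without replicates 1 to 4, 2 passed, Hdc and Kit. With 1 library left out, 2 to 6 members passed, and under quantile normalization over all genes 1 did.

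Of the macrophage genes, 7 of 24 were tested, and Fcgr3, Mrc1 and Cd14 passed above 0 (3.84% of all genes tested did), with a list median of 0.68. Mrc1, the mannose receptor, was at 7.87 to 13.8 FPKM in db/+ (median 10.1, 5 values), 5.14 to 8.12 in db/+ PIO (median 6.79, 4 values), 6.66 to 10.5 in db/db (median 9.01, 3 values) and 11.7 to 16 in db/db PIO (median 15.6, 3 values). Its interaction was 1.19 ± 0.27 (SE; adjusted p = 0.0253), and the effect was 0.67 ± 0.21 in db/db and -0.52 ± 0.17 in db/+. Fcgr3, a receptor for IgG, was at 10.7 to 17.4 FPKM in db/+ (median 12.9, 5 values), 8.07 to 11 in db/+ PIO (median 8.53, 4 values), 13.4 to 24.8 in db/db (median 22.2, 4 values) and 20.4 to 48.5 in db/db PIO (median 35.9, 4 values), with an interaction of 1.22 ± 0.33 (SE; adjusted p = 0.0424). Cd14, a co-receptor for lipopolysaccharide, had 0.85 ± 0.23 (SE; adjusted p = 0.0314), with effects of 0.15 ± 0.16 in db/db and -0.70 ± 0.16 in db/+. Lyz1, Fcgr1, Cd86 and Aif1 did not pass, at 0.68, 0.36, 0.28 and 0.00. Cd68 and Cd36 were listed at 0 in all 24 libraries. The count of called members was 3 without db/+ replicates 5 and 6, 0 without replicates 1 to 4, 0 to 3 with 1 library left out, and 0 under quantile normalization over all genes.

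Genes with an interaction below 0 fell into a narrower range, from -1.32 to -0.75 among the 15 largest. Pou3f1, the POU factor of Schwann cells on their way to myelination, was at 8.67 to 13 FPKM in db/+ (median 11.8, 6 values), 9.92 to 17.2 in db/+ PIO (median 12, 6 values), 10.4 to 20.7 in db/db (median 16.7, 6 values) and 7.2 to 10.1 in db/db PIO (median 8.26, 6 values). Db/db PIO lay wholly below db/db, whereas both db/+ groups overlapped. The effect was -0.88 ± 0.14 in db/db and 0.11 ± 0.14 in db/+, and the interaction of -0.99 ± 0.19 (SE; adjusted p = 0.00696) passed in all 24 fits that left out 1 library. Pou3f2, a related POU factor, was at 6.41 to 7.62 FPKM in db/+ (median 7.09, 4 values), 7.46 to 9.87 in db/+ PIO (median 9.06, 4 values), 3.46 to 7.61 in db/db (median 5.89, 6 values) and 2.4 to 4.49 in db/db PIO (median 2.74, 5 values). Its interaction was -1.00 ± 0.23 (SE; adjusted p = 0.022), with effects of -0.71 ± 0.15 in db/db and 0.29 ± 0.17 in db/+. Mycn, a transcription factor of the MYC family, was at 2.7 to 9.93 FPKM in db/+ (median 8.23, 5 values), 8.15 to 12.2 in db/+ PIO (median 10.5, 6 values), 5.09 to 9.69 in db/db (median 6.54, 5 values) and 2.48 to 5.11 in db/db PIO (median 3.34, 5 values). Its median was highest in db/+ PIO and lowest in db/db PIO, and the interaction was -1.32 ± 0.33 (SE; adjusted p = 0.0253), with effects of -0.77 ± 0.23 in db/db and 0.55 ± 0.22 in db/+. Has2, the enzyme that makes hyaluronan, was at 3.96 to 8.45 FPKM in db/+ (median 6.84, 6 values), 7.18 to 7.84 in db/+ PIO (median 7.76, 5 values), 2.66 to 7.83 in db/db (median 4.9, 6 values) and 1.44 to 3.11 in db/db PIO (median 2.43, 6 values). The interaction of Has2 was -1.05 ± 0.26 (SE; adjusted p = 0.0253), and the effect was -0.79 ± 0.18 in db/db and 0.26 ± 0.19 in db/+.

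Serpind1, heparin cofactor II, an inhibitor of thrombin, was at 57.4 to 85.2 FPKM in db/+ (median 68.3, 6 values), 65.6 to 88.5 in db/+ PIO (median 75.9, 5 values), 52.4 to 68.3 in db/db (median 59.1, 6 values) and 27.4 to 40.3 in db/db PIO (median 39.2, 6 values). Db/db PIO lay below all other groups without overlap, and the interaction was -0.82 ± 0.15 (SE; adjusted p = 0.00643). With each 0 entered as a value, which adds 1 db/+ PIO library at 0, it was 0.22 (adjusted p = 0.987). Lcat, the plasma enzyme that esterifies cholesterol, had an interaction of -0.84 ± 0.22 (SE; adjusted p = 0.0323). The lens crystallin gene Crybb1 had -1.00 ± 0.25 (SE; adjusted p = 0.0253), and the forkhead factor gene Foxf1a -0.90 ± 0.26 (SE; adjusted p = 0.0414). Ier3, an early response gene, was at 10.7 to 16.2 FPKM in db/+ (median 14.6, 6 values), 12.6 to 20.1 in db/+ PIO (median 17.2, 6 values), 14.5 to 20.4 in db/db (median 17.8, 6 values) and 8.78 to 13.8 in db/db PIO (median 12.2, 6 values), with an interaction of -0.80 ± 0.17 (SE; adjusted p = 0.0118). Fam181b had -0.75 (adjusted p = 0.014), and the unnamed transcripts 6530418L21Rik, LOC100504495, LOC100503514, 1700058G18Rik and 2900011O08Rik had -0.84, -0.83, -0.80, -0.78 and -0.76. In 14 of the 15 genes the effect in db/db was the larger of the 2. The 15 genes had a median interaction of -0.93 without db/+ replicates 5 and 6, where 12 could be fitted and all 12 passed. Without db/+ replicates 1 to 4 the median was -0.87, and 3 of 14 passed, Mycn, Has2 and Ier3.

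Of the Schwann cell myelin genes, 3 of 22 were tested, and Pou3f1 passed below 0 (2.14% of all genes tested did). Mbp, myelin basic protein, was at 10695 to 13038 FPKM in db/+ (median 11788, 6 values), 9692 to 11385 in db/+ PIO (median 10719, 6 values), 8370.5 to 11059 in db/db (median 9808, 6 values) and 7889 to 10258 in db/db PIO (median 8760.5, 6 values). Its interaction of 0.04 (adjusted p = 0.888) did not pass. None of the 9 non-myelinating and repair Schwann cell genes tested passed, with a median of -0.15, and neither did any of 6 neuronal and axonal genes, with a median of 0.21. The Schwann cell factor genes Sox10 and Egr2 had too few values to be tested, and 11 members of the myelin list were listed at 0 in all 24 libraries.

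Matrix genes were called in both directions. Mmp3, stromelysin 1, which cleaves matrix proteins, was at 0.03 to 1.44 FPKM in db/+ (median 0.475, 6 values), 0.08 to 0.45 in db/+ PIO (median 0.235, 6 values), 0.58 to 2.98 in db/db (median 2.09, 6 values) and 3.44 to 7.78 in db/db PIO (median 4.26, 5 values). Db/db PIO exceeded all other groups, and the interaction was 1.45 ± 0.34 (SE; adjusted p = 0.022). Mmp9, gelatinase B, had 1.05 ± 0.31 (SE; adjusted p = 0.0459), with effects of 0.36 ± 0.22 in db/db and -0.69 ± 0.22 in db/+. Mmp9 was at 2.64 to 6.12 FPKM in db/+ replicates 1 to 4 and at 1.43 and 1.84 FPKM in replicates 5 and 6. Its db/db values were only 0.27 to 0.68 FPKM. In db/db PIO it was at 2.22 FPKM in replicate 6 and at 0.39 to 0.92 FPKM in the others. Of the matrix proteases and inhibitors, 6 of 27 were tested, 2 passed, both above 0 (3.84% of all genes tested did), and the median was 0.85. No member passed above 0 without db/+ replicates 1 to 4 or under quantile normalization over all genes. Adamts2, which trims procollagen, had 1.75 (adjusted p = 0.0696). Of 28 collagen genes 3 were tested. Col4a3, a chain of basement membrane collagen IV, had 1.07 ± 0.32 (SE; adjusted p = 0.0479), and Col8a1 did not pass, at 1.17 (adjusted p = 0.172). Col4a3 was at 1.28 to 2.24 FPKM in db/+ replicates 1 to 4 and at 0.27 and 0.3 FPKM in replicates 5 and 6. Its db/db values were under 1 FPKM, and its highest db/db PIO value, 2.14 FPKM, was in replicate 6. No collagen gene passed without db/+ replicates 1 to 4 or under quantile normalization over all genes. Col2a1, the fibrillar collagen of cartilage, was at 6.15 to 8.96 FPKM in db/+ (median 6.54, 5 values), 4.93 to 7.92 in db/+ PIO (median 6.89, 6 values), 1.07 to 2.04 in db/db (median 1.66, 6 values) and 0.23 to 0.94 in db/db PIO (median 0.45, 6 values). Its db/db PIO values lay below all others, and its interaction was -0.71 ± 0.19 (SE; adjusted p = 0.0307), with effects of -0.78 ± 0.13 in db/db and -0.07 ± 0.13 in db/+. Comp and Col2a1 were also the 2 of 14 cartilage and bone genes tested, and they passed in opposite directions. The main fibrillar collagens of nerve, Col1a1 and Col3a1, could not be tested.

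Few genes known to respond to PPARG could be tested. Of 36 PPAR target genes 3 had enough values, and Creg1, a secreted and lysosomal glycoprotein, passed at 0.48 ± 0.13 (SE; adjusted p = 0.0335). Its levels were 23.4 to 25.7 FPKM in db/+ (median 24.6, 5 values), 21.4 to 26.4 in db/+ PIO (median 22.9, 6 values), 27.8 to 35 in db/db (median 31.2, 5 values) and 38.1 to 51.7 in db/db PIO (median 38.9, 3 values). With each 0 entered as a value its interaction was -2.18 (adjusted p = 0.827). Fabp3, a fatty acid binding protein, had 1.26 (adjusted p = 0.346) and Cidea, a lipid droplet protein, 1.23 (adjusted p = 0.409). The effect of Cidea was 3.04 ± 0.63 in db/db and 1.81 ± 0.57 in db/+, and that of Cox8b, the muscle and brown fat form of a cytochrome oxidase subunit, 3.77 ± 0.66 in db/db and 3.05 ± 0.62 in db/+. Cox8b was at 3.82 to 19.4 FPKM in db/+ (median 10.8, 6 values), 15.8 to 270.1 in db/+ PIO (median 139, 5 values), 4.92 to 16.1 in db/db (median 6.31, 6 values) and 72.6 to 248 in db/db PIO (median 113, 4 values). Db/db PIO lay wholly above db/db, and db/+ PIO lay mostly above db/+, with overlap. The interaction of Cox8b was 0.72 (adjusted p = 0.677). Of the brown adipocyte genes, 8 of 20 were tested, and Kng2, a kininogen gene, passed at 1.35 ± 0.37 (SE; adjusted p = 0.0373). Kng2 was low, at 0.12 to 0.6 FPKM in db/+ PIO and 0.42 to 1.38 in db/db. In db/+ it was at 0.6 and 0.12 FPKM in replicates 5 and 6 and at 1.17 to 3.35 in its other values above 0. No member passed above 0 without db/+ replicates 1 to 4 or under quantile normalization over all genes. The list median was 0.73. White adipocyte genes had 2 of 25 members tested, and neither passed. Cebpa was at 0.82 (adjusted p = 0.469) and Thrsp at 1.50 (adjusted p = 0.325). The marker Adipoq had values in 4 db/+ and 3 db/+ PIO libraries and was listed at 0 in every db/db and db/db PIO library. Fabp4, the adipocyte fatty acid binding protein, had 2 db/+ values, of 1543 and 2874 FPKM, and in the other groups values of 2428 to 16830.2 FPKM. The part of fat in the other results was not tested. Cebpa, the white adipocyte gene with a value in all 24 libraries, was at 7.68 to 48.5 FPKM in db/+ (median 29.1, 6 values), 7.42 to 64.5 in db/+ PIO (median 35.6, 6 values), 19.8 to 63.3 in db/db (median 32.5, 6 values) and 43.2 to 103 in db/db PIO (median 78.2, 6 values).

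Genes of energy metabolism had few calls. Fh1, fumarate hydratase of the TCA cycle, was at 24.4 to 32.4 FPKM in db/+ (median 27.9, 6 values), 23.2 to 38.4 in db/+ PIO (median 26.1, 3 values), 24.3 to 25.8 in db/db (median 25.8, 3 values) and 39.7 to 60.3 in db/db PIO (median 45.9, 5 values). Its interaction was 0.83 ± 0.21 (SE; adjusted p = 0.0354), and the 1 other TCA cycle gene tested did not pass. Complex I had 8 of 37 members tested and complexes II to V 7 of 42, with no call, medians of 0.29 and 0.32, and Ndufb6 at 0.70 (adjusted p = 0.0799). Neither did any of 5 glycolysis genes, 2 fatty acid oxidation genes, 2 genes of fatty acid and triglyceride synthesis, 1 of cholesterol synthesis or 4 genes of the PPAR family and its partners pass.

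The lists of stress and signalling genes held 1 to 3 called members each, at shares to be read against the 5.98% of all genes tested. Igfbp3, which binds insulin-like growth factors, was at 5.2 to 10.2 FPKM in db/+ (median 8.05, 6 values), 3.41 to 6.02 in db/+ PIO (median 4.29, 6 values), 29.4 to 62.7 in db/db (median 35.5, 5 values) and 42.1 to 72.6 in db/db PIO (median 47.5, 6 values). Both db/db groups lay above both db/+ groups, and the interaction was 1.02 ± 0.26 (SE; adjusted p = 0.0287), with effects of 0.35 ± 0.19 in db/db and -0.67 ± 0.18 in db/+. It was the 1 gene called of 9 tested in the list of insulin and growth factor signalling. Of the immediate early genes, 20 of 28 were tested. Ctgf, a matricellular growth factor, passed at 1.22 ± 0.31 (SE; adjusted p = 0.0307), Zfp36, which destabilizes mRNA, at 0.77 ± 0.23 (SE; adjusted p = 0.0491), and Ier3 below 0. For Ctgf, all 5 db/db PIO values exceeded all other values, at 8.4 to 27.4 FPKM in db/+ (median 15.9, 6 values), 8.03 to 14.2 in db/+ PIO (median 10.6, 6 values), 16.8 to 26.1 in db/db (median 22, 4 values) and 29.2 to 46.9 in db/db PIO (median 41.6, 5 values). Wee1, a kinase that holds back mitosis and follows the clock, had 1.20 ± 0.31 (SE; adjusted p = 0.0327), as the 1 call among 5 circadian clock genes tested. Klf9, a glucocorticoid-induced factor, had 0.95 ± 0.26 (SE; adjusted p = 0.0453), as the 1 call among 6 glucocorticoid response genes. The chaperone genes Hsp90aa1 and Dnajb9 had 0.48 (adjusted p = 0.0449) and 0.44 (adjusted p = 0.0335), as 2 calls among 12 heat shock and unfolded protein genes. Gsta4, a glutathione transferase that clears products of lipid peroxidation, had 0.86 ± 0.22 (SE; adjusted p = 0.0316), as 1 of 10 tested in oxidative stress defence. With each 0 entered as a value the interactions of Klf9, Gsta4, Zfp36 and Hsp90aa1 were below 0, at -0.27, -2.69, -0.83 and -1.94, and none of them passed. Under quantile normalization over all genes, no member of these lists passed.

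In other lists no tested gene passed. These were 23 chemokines, cytokines and receptors with a median of 0.31, 18 cell cycle genes with 0.37 (-0.09 under quantile normalization over all genes), 13 cytosolic ribosomal proteins with 0.13, 12 interferon-stimulated genes with -0.04 and 11 skeletal muscle genes with 0.23. Ccl8, a monocyte chemokine, had the largest interaction among them, at 2.60 (adjusted p = 0.0934), followed by Ckm at 1.87 (adjusted p = 0.361) and Ccl6 at 1.86 (adjusted p = 0.061). The summed FPKM of the 6 muscle genes with a value in all libraries was between 15.1 and 21.4 in db/+, between 14.1 and 28.9 in db/+ PIO, between 12.3 and 248 in db/db and between 16.2 and 394 in db/db PIO, and the high sums followed the replicate number in both db/db groups. In db/db they were 95.3, 115 and 248 in replicates 1, 3 and 5 and 14.2, 14.9 and 12.3 in replicates 2, 4 and 6. In db/db PIO they were 104, 394 and 140 in replicates 1, 3 and 5 and 16.2, 16.8 and 45.6 in replicates 2, 4 and 6. The part of muscle transcripts in the other results was not tested. Smaller lists without a call were complement, MHC class II, T and natural killer cell, lipid-associated macrophage, pericyte and smooth muscle, B cell, endothelial and erythroid genes, with 1 to 5 members tested. Complement had a median of 0.74 over 3 genes and MHC class II -0.45 over 3.

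**Figure D5:**
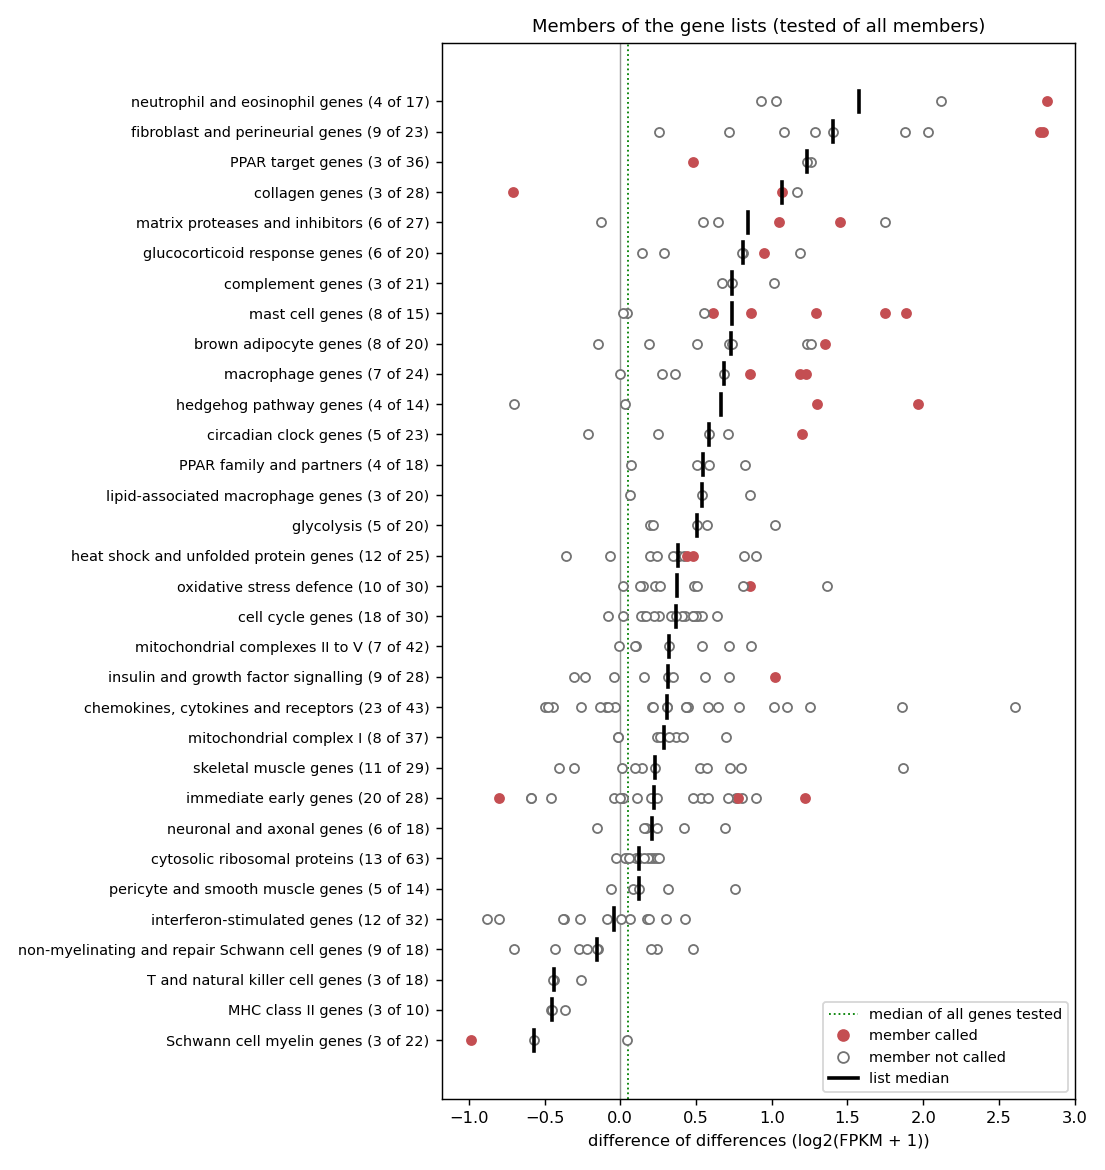
Interaction (x axis, log2(FPKM + 1)) of each tested member of the lists with at least 3 members tested; filled points passed, open points did not, black bars are list medians and the dotted line is the median of all genes tested, at 0.05. Fibroblast and perineurial, mast cell and macrophage genes lie mostly to the right of the dotted line, and the 3 Schwann cell myelin genes at or to the left of it.

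A total of 19 genes passed with all libraries, without db/+ replicates 5 and 6, and without db/+ replicates 1 to 4, and they were named after their values were seen. Above 0 they were Arl4d, Clec4a1, LOC100504147, Ctgf, Wee1, Cdkn2b, Rab15, Rnf144b, Hdc and Kit. Clec4a1, a lectin receptor of myeloid cells, had an interaction of 1.54 ± 0.28 (SE; adjusted p = 0.00696). Cdkn2b, an inhibitor of cyclin-dependent kinases, had 1.00 ± 0.17 (SE; adjusted p = 0.00565), and Rab15, a GTPase of endocytic traffic, 0.95 ± 0.15 (SE; adjusted p = 0.00445). Below 0 they were Mycn, Has2, Ier3, Nppc, Pard6b, LOC100503762, 5930403L14Rik, Ankrd56 and Sertad2. Nppc, the precursor of C-type natriuretic peptide, had -0.80 ± 0.18 (SE; adjusted p = 0.0183), with effects of -0.40 in db/db and 0.40 in db/+.

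The interaction was also compared between SCN and glomeruli in one fit of both. Of 2241 genes tested in both, 173 (7.72%) differed, 145 of them with a higher interaction in SCN. Under quantile normalization, which moved the median difference to -0.49, the direction turned, with 21 of 71 called genes higher in SCN and 50 lower. In glomeruli alone, 52 of the 322 called interactions were above 0 and 270 below 0. Of the 54 genes named for SCN, 25 could be tested, and 9 differed, all higher in SCN. These genes were named for their called SCN interactions, mostly above 0, and the difference reuses the same SCN values, so that neither this share nor its direction is independent of the choice. For Cldn1 the difference was 2.65 ± 0.78 (SE; adjusted p = 0.0271), with an interaction of 0.12 ± 0.56 in glomeruli. Fmod had a difference of 2.81 ± 0.71 (SE; adjusted p = 0.00934), with an interaction of -0.06 ± 0.49 in glomeruli, and Arg1 one of 2.50 ± 0.76 (SE; adjusted p = 0.0367), with an interaction of -0.10 ± 0.58 in glomeruli. Igfbp3 had 2.30 ± 0.45 (SE; adjusted p = 0.000802), with an interaction of -1.27 ± 0.32 in glomeruli, and Fcgr3 2.90 ± 0.58 (SE; adjusted p = 0.0014), with an interaction of -1.68 ± 0.40 in glomeruli. In these last genes the sign of the interaction in glomeruli was opposite to that in SCN. None of the 7 genes tested among the 15 largest below 0 differed, and Ier3 had an interaction of -0.84 in glomeruli beside -0.80 in SCN.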

How the data were processed

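RNA-Seq was carried out by the authors on SCN, DRG, glomeruli and cortex of db/+ and db/db mice with an unstranded poly(A) kit. Reads were mapped to mm9, and the authors deposited 1 FPKM value per gene and library, made with Cufflinks per the labels. Read totals per library are not part of the files, so the depth of each library is unknown, and antisense partners cannot be separated. Tool versions of the mapping were not given in the sources used here.

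Values were transformed to log2(FPKM + 1), which understates changes of low genes, and an exact 0 was read as missing. Genes with at least 1 FPKM in at least 5 SCN libraries (7627 of 25407) and at least 3 values in each group (3596) were tested with limma 3.58.1 in R 4.3.3, with a mean per group and a variance trend. The interaction coefficient was fitted directly. P-values were adjusted by Benjamini-Hochberg over all genes tested, with a threshold of 0.05. All tests were two-sided. The labels give 6 replicates per group without naming animals, so that p-values measure the spread between these libraries. The scripts were tested on simulated data. Some genes are not reported here.

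Named genes are the 15 largest called interactions in each direction with 1 sign in all 24 fits that left out a library, up to 4 called members of each gene list, and Lepr, Ppara, Ppard and Pparg. The gene lists and members were chosen with earlier results of these data known. Coordinates are from Gencode on mm9. Replicate numbers did not pair the libraries over all genes (skeletal muscle genes did follow them in db/db): for same-numbered libraries of different SCN groups, correlations of deviations from the group mean ran from -0.27 to 0.55. Alternatives covered scaling, filters, zeros, weights, a replicate block and libraries left out. The settings without db/+ replicates 5 and 6 or 1 to 4, and quantile normalization of the tested genes alone, were chosen after seeing the data.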

Additional observations from a re-analysis of the deposited data

Results flagged for a closer look

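Among the named genes, single libraries stood apart from the rest of their group by Dixon's test in 7 of 207 combinations of gene and group, where chance flags about 1 in 20 groups. In db/+ PIO replicate 2, Comp was at 2.92 FPKM against 1.08 to 1.18 in the other 3 values, and Has2 was at 7.18 FPKM against 7.68 to 7.84. In db/+ PIO replicate 3, Ear11 was at 2.92 FPKM against 0.19 to 0.66. In db/db PIO replicate 6, Shisa3 was at 44.5 FPKM against 11.3 to 14.9, and 1700058G18Rik was at 7.81 FPKM against 9.93 to 11.1. In db/db PIO replicate 1, Dnajb9 was at 21.7 FPKM against 27.5 to 29.9, and in db/db replicate 4, Pou3f1 was at 10.4 FPKM against 16.2 to 20.7. The causes were not tested.

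The interaction differed between SCN and glomeruli for 9 of the 25 named genes that could be tested in both (limma, one fit of 48 libraries, adjusted over 2241 genes). The genes were named for their called SCN interactions, which this difference reuses, so that the share and its direction are not independent of the choice. The difference on the log2 scale, SCN minus glomeruli, was 3.61 for Gm11428, 2.90 for Fcgr3, 2.81 for Fmod, 2.65 for Cldn1, 2.50 for Arg1, 2.45 for Perp, 2.30 for Igfbp3, 1.74 for Mmp3 and 1.40 for Wee1.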

How the results depend on the processing

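The count of 215 genes called in SCN depended on single libraries and on how zeros and scaling were treated. With each 0 entered as a value 3 of 7627 genes passed, 1 of them among the 215. With quantile normalization over all genes 8 passed, 7 of them among the 215. A mean of at least 5 FPKM gave 125 (64 above 0) and at least 5 values per group 136 (82 above 0), with fewer genes tested, and these kept all 116 and all 117 of the 215 genes that they tested. Array weights gave 516, 383 of them above 0. Leaving out db/+ replicates 5 and 6 gave 494, and leaving out replicates 1 to 4 gave 32. A difference of at least 1 left 79. With 1 library left out, the count ran from 102 to 342. It moved by over 1.5 times without db/+ replicate 2 (140), 3 (111), 4 (102) or 6 (342), db/+ PIO replicate 1 (117), 3 (114) or 6 (116), db/db replicate 2 (116), 3 (104) or 5 (131), and db/db PIO replicate 3 (130). Of the 215 genes, 74 passed in all 24 of these fits. Of the called genes, 64.2% lay above 0, 73.2% with median-of-ratios scaling (205 called) and 46.0% with quantile normalization of the tested genes alone (252 called). With a replicate block, although the numbers did not pair the libraries, 200 genes passed, 155 of them shared with the 215, and 6 of 24 libraries correlated best with their own number.

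For the SCN and glomeruli comparison, the 173 genes went to 8 with each 0 entered as a value, 337 without a filter on low values and 71 under quantile normalization (29.6% higher in SCN, against 83.8%), and to 132 to 282 with 1 library left out, the highest without glomeruli db/+ replicate 2. With each 0 entered as a value, 8 of the 54 named genes changed sign without passing, at 0.21 for LOC100504495, 0.22 for Serpind1, 0.74 for LOC100503514, -0.27 for Klf9, -2.69 for Gsta4, -0.83 for Zfp36, -2.18 for Creg1 and -1.94 for Hsp90aa1. The causes were not tested.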
